A study of Homo sapiens with 6 samples.

Results

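LX-2 cells are an immortal line derived from human hepatic stellate cells, the liver cells that lay down collagen once activated. The genes described here are 10 semaphorins (SEMA3A, SEMA3B, SEMA3C, SEMA3D, SEMA3E, SEMA3F, SEMA4B, SEMA4C, SEMA5A and SEMA7A), chosen by name from the 33900 genes of the expression table. All 10 were found, and the table held 20 semaphorin genes in all. Recombinant human Sema3C (rhSema3C) was given to 3 LX-2 samples at 300 ng/ml, PBS was given to another 3, and RNA was sequenced after 48 h. Both groups were the same line with no genetic change named in the labels, and RNA was taken from whole cultures. The comparison asks how stellate cells respond to Sema3C in the medium, and here how much of each semaphorin transcript they carried and whether that changed. The labels call the samples of a group biological replicates without saying whether they were separate cultures or passages, so p-values measure the spread between these samples of 1 line.

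Semaphorins are guidance ligands first known from growing axons and now also from blood vessels, immune cells and tumors. Class 3 members are secreted and mostly bind a neuropilin that pairs with a plexin, class 4 and class 5 members span the membrane, and SEMA7A is held on the cell surface by a lipid anchor. Plexins pass the signal to small GTPases and the actin skeleton, and furin-like proteases cut class 3 proteins into forms of different activity.

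Total counts on genes were between 68267808 and 89245585 per sample. No library was a copy of another, since the chi-square of counts between replicates was 15.9 to 27.6 times its degrees of freedom in the 6 pairs. Of 15 stellate cell and fibroblast markers, 9 had a mean of at least 1 FPKM (fragments per kilobase of transcript, scaled by the authors to library size, a level per length). COL1A2, PDGFRA, DES, DCN and LRAT were near 0, and RGS5 was at 0.329 FPKM with PBS and 0.527 with rhSema3C. The summed FPKM of these 15 markers was 1385 to 1443 with PBS and 1097 to 1159 with rhSema3C. Most of it was VIM (1035 and 834 FPKM on average) and TIMP1 (230 and 184). The summed FPKM of 5 hepatocyte markers in the table was 2.67 to 3.16 with PBS and 3.52 to 4.16 with rhSema3C, nearly all of it SERPINA1, and ALB was near 0. The 4 endothelial markers summed to 0.161 to 0.183 FPKM with PBS and 0.591 to 0.875 with rhSema3C, a difference carried by VWF (0.101 and 0.659 FPKM on average), while PECAM1 and CDH5 were near 0. The 3 biliary markers summed to 2.37 to 3.88 and 3.20 to 3.67. The 3 leukocyte markers summed to 94.4 to 103 FPKM with PBS and 66.8 to 72.5 with rhSema3C, nearly all of it CD68, while PTPRC was near 0. Mitochondrial genes took 4.75% to 5.42% of counts with PBS and 3.73% to 3.93% with rhSema3C. The part of these differences in the results on semaphorins was not tested.

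In PBS-treated cells the semaphorin transcripts differed widely in level, and SEMA7A was by far the most abundant per length. With PBS, SEMA7A was at 52.8 ± 1.16 FPKM (SD, n = 3), above 94.4% of the 14178 genes tested. SEMA3C, the same ligand as the one added, came next at 11.5 ± 0.551 FPKM, which was 4.60-fold below SEMA7A. It was followed by SEMA4B at 9.11 ± 0.258 FPKM and SEMA4C at 7.70 ± 0.564 FPKM. SEMA3B was at 4.08 ± 0.143 FPKM, SEMA3F at 2.06 ± 0.0827 FPKM and SEMA5A at 0.913 ± 0.136 FPKM. The last 3 were SEMA3A at 0.310 ± 0.0884 FPKM, SEMA3D at 0.199 ± 0.0176 FPKM and SEMA3E at 0.0655 ± 0.00874 FPKM. Only SEMA3A and SEMA3D overlapped in their PBS values among neighbors in this order, with 0.211 to 0.383 and 0.189 to 0.220 FPKM. SEMA3C therefore stood 39.8 times above SEMA3A on average, with ratios between 30.3 and 56.7 in the 3 PBS samples. With rhSema3C the order of the 10 was the same except that SEMA4B moved above SEMA3C, to a mean of 12.3 FPKM beside 11.5 FPKM, with overlapping samples.

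**Figure D1:**
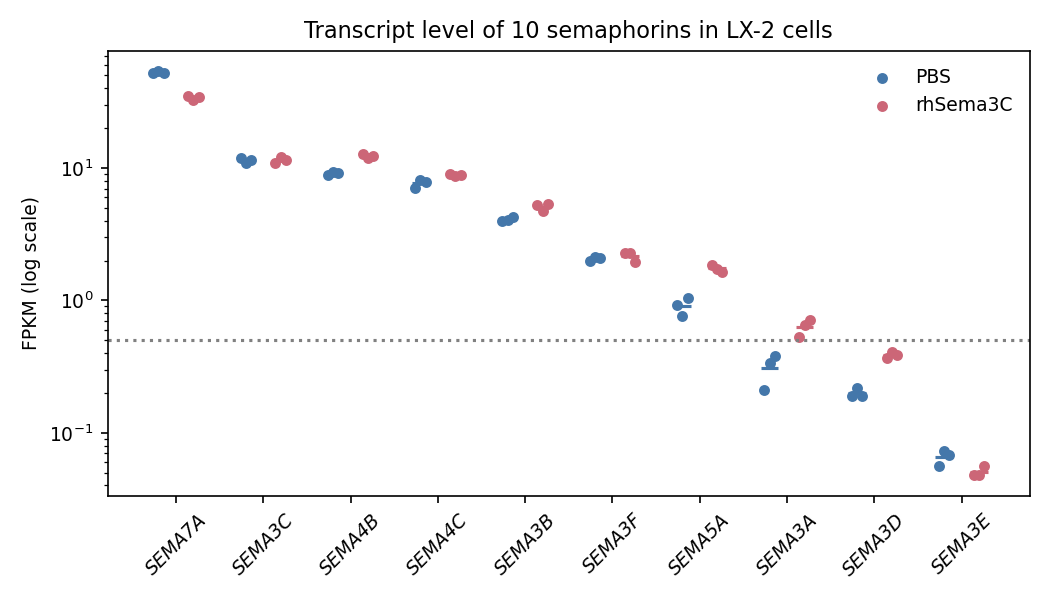
FPKM on a log scale (vertical axis) of the 10 semaphorins, ordered by their PBS mean, in 3 PBS samples (blue) and 3 rhSema3C samples (red); points are samples, short lines group means, and the dotted line marks the 0.5 FPKM that the mean over all 6 samples had to reach for the test. SEMA7A lies above every other gene in both groups, and SEMA3A, SEMA3D and SEMA3E lie lowest.

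Other semaphorins of the table were also present at levels within this range. SEMA4F was at 5.97 FPKM, SEMA6B at 4.70 FPKM and SEMA4D at 2.15 FPKM with PBS, each above SEMA3F, although SEMA4D and SEMA3F overlapped. The 10 genes described here made up 86.1% ± 0.443 (SD, n = 3) of the summed FPKM of all 20 semaphorins with PBS and 86.7% ± 0.119 with rhSema3C (two-sided exact permutation p = 0.2, where the smallest possible is 0.1).

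The counts were scaled by the TMM method to CPM (counts relative to the normalised library size) and compared by the quasi-likelihood test of edgeR over the 14178 genes with a mean of at least 0.5 FPKM. Of the 10 genes, 7 passed this filter, and SEMA3A, SEMA3D and SEMA3E did not. At an adjusted p below 0.05, 4 of the 7 differed, beside 62.3% of all genes tested. SEMA5A, SEMA4B and SEMA3B were higher with rhSema3C (3 of 7, beside 31.7% of all genes tested), and SEMA7A was lower (1 of 7, beside 30.6%). SEMA3C, SEMA3F and SEMA4C did not pass. None of the 7 reached a fold change above 2 with an unadjusted p below 0.05, which 5.54% of all genes tested did. In 4 of the 7 the CPM of the 2 groups did not overlap, beside 67.8% of all genes tested. The median log2 fold change of the 7 was 0.10, beside 0.02 for all genes tested. These shares of called genes lie near the background.

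**Figure D2:**
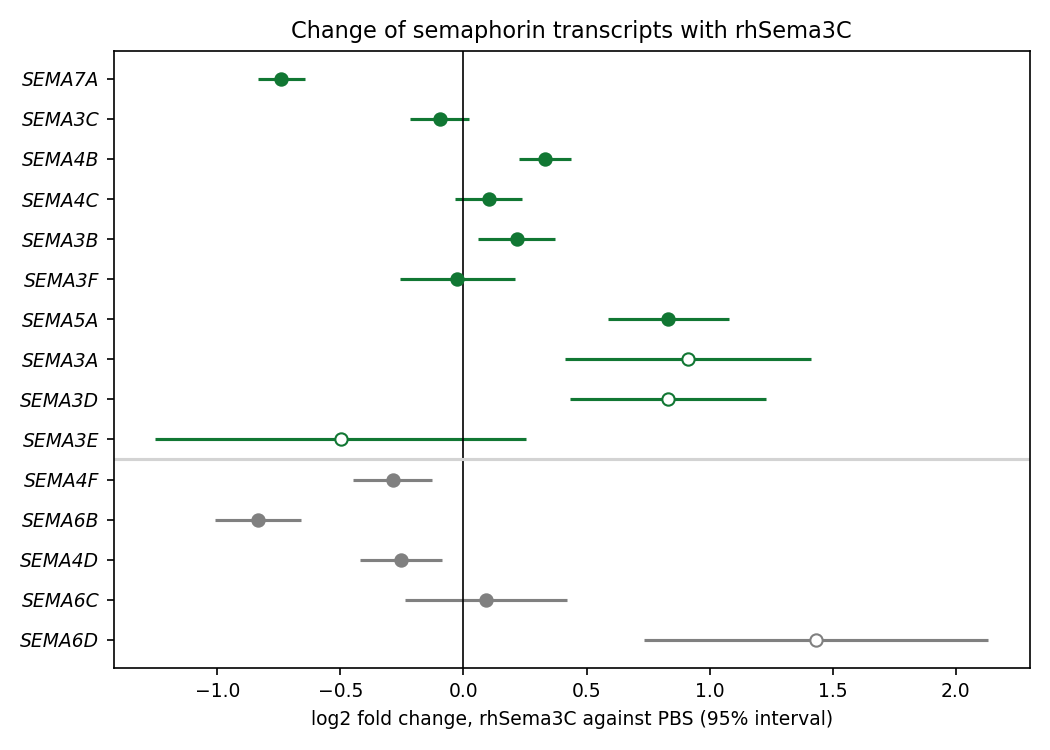
The log2 fold change of rhSema3C against PBS (horizontal axis) with its 95% interval for the 10 semaphorins (green, above the line) and for SEMA4F, SEMA6B, SEMA4D, SEMA6C and SEMA6D (grey). Filled points come from the fit of 14178 genes and open points from the fit of all 33900 genes; the interval of SEMA7A lies wholly below 0, those of SEMA5A, SEMA4B, SEMA3B, SEMA3A and SEMA3D wholly above it, and that of SEMA3C includes 0.

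SEMA7A, the lipid-anchored semaphorin that binds plexin C1 and beta-1 integrins, had the lowest fold change of the 7. Its CPM was 209, 220 and 212 in the PBS samples and 132, 123 and 129 in the rhSema3C samples. Every rhSema3C value lay far below every PBS value. The log2 fold change was -0.74 ± 0.04 (SE), which is 0.599 times the PBS level, with an adjusted p of 1.18e-07. In FPKM the level fell from 52.8 to 33.9 ± 1.20 (SD, n = 3), and SEMA7A was still the most abundant semaphorin. In RNA of whole cultures, fewer cells carrying a transcript and less of it per cell cannot be told apart.

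SEMA5A, a membrane-spanning semaphorin with thrombospondin repeats, rose. Its CPM was 12.2, 10.2 and 13.6 with PBS and 22.6, 21.2 and 20.1 with rhSema3C, so that the groups did not overlap. The log2 fold change was 0.83 ± 0.11 (SE), or 1.78-fold, with an adjusted p of 5.98e-05. On the log2(FPKM + 1) scale of limma the difference was 0.52, where the added 1 is close to the PBS level of this gene.

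SEMA4B and SEMA4C are both class 4 proteins that span the membrane, and SEMA4C is a ligand of plexin B2. SEMA4B had a CPM of 66.0, 70.4 and 68.1 with PBS and 88.7, 82.6 and 86.2 with rhSema3C, again without overlap. It rose by 1.26-fold, with a log2 fold change of 0.33 ± 0.05 (SE) and an adjusted p of 0.000104. SEMA4C had a CPM of 47.1, 54.7 and 52.6 with PBS and 56.4, 54.5 and 54.9 with rhSema3C. Its groups overlapped, and the log2 fold change of 0.10 had a 95% interval of -0.03 to 0.24 (adjusted p = 0.168). With scaling by library size alone SEMA4C passed the threshold at a log2 fold change of 0.21 (adjusted p = 0.0103). It also passed with limma on log2(FPKM + 1), log2(FPKM + 0.1) and TPM (adjusted p = 0.0198, 0.0202 and 0.00368).

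SEMA3C itself, a secreted ligand of both neuropilins and of plexin D1, did not pass the test. Its CPM was 77.7, 71.3 and 75.0 with PBS and 66.2, 73.7 and 69.9 with rhSema3C. The second rhSema3C sample lay within the PBS range and the other two below it. The log2 fold change was -0.10 with a 95% interval of -0.22 to 0.02 and an adjusted p of 0.148. In the authors' FPKM, which are not scaled by TMM, the means were 11.5 ± 0.551 and 11.5 ± 0.635 (SD, n = 3), so the sign depended on the scaling. The counts cover RNA of the cells and give no measure of the recombinant protein that was added.

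SEMA3B and SEMA3F, secreted semaphorins known as candidate tumor suppressors, lie close together on chromosome 3, with 3 tested genes starting between them. SEMA3B had a CPM of 24.3, 25.1 and 26.0 with PBS and 30.1, 27.2 and 30.3 with rhSema3C, with no overlap. Its log2 fold change was 0.22 ± 0.07 (SE), with an adjusted p of 0.0198. The log2 fold change stayed between 0.19 and 0.27 with any 1 library left out, but the call was lost in some of these fits. The adjusted p was 0.0648 without PBS replicate 1, 0.0727 without rhSema3C replicate 1 and 0.0957 without rhSema3C replicate 3. It was 0.0531 with all genes of the table tested. SEMA3F had a CPM of 10.1, 11.1 and 10.7 with PBS and 11.01, 11.01 and 9.36 with rhSema3C. The groups overlapped, with the third rhSema3C sample below every PBS sample, and the log2 fold change of -0.02 had a 95% interval of -0.26 to 0.21 (adjusted p = 0.854). SEMA3F shares its place with the antisense gene SEMA3F-AS1, whose counts reached at most 21.5% of its own. Whether the counting used strand is not given in the sources used here, so reads of the pair cannot be told apart.

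SEMA3A, SEMA3D and SEMA3E were low, and their values come from the fit of all 33900 genes. SEMA3A, the class 3 founder that collapses growth cones through neuropilin 1, had counts of 179, 233 and 249 with PBS and 424, 546 and 546 with rhSema3C. Its CPM was 2.09, 3.34 and 3.79 with PBS and 4.92, 5.97 and 6.56 with rhSema3C, so that every treated sample was above every control. The log2 fold change was 0.91 ± 0.22 (SE), or 1.88-fold, with an adjusted p of 0.0131. SEMA3D, which binds neuropilin 1, had counts of 139, 134 and 109 with PBS and 255, 300 and 259 with rhSema3C. It rose by 1.78-fold, with a log2 fold change of 0.83 ± 0.18 (SE) and an adjusted p of 0.00649. In that fit, 12.5% of the 33900 genes passed as higher, a share that includes the many genes under the filter. Of the 14178 genes above it, 31.7% were higher in the reported fit. SEMA3E, which binds plexin D1 without a neuropilin, had counts of 44, 47 and 41 with PBS and 35, 37 and 40 with rhSema3C. Its log2 fold change of -0.50 had a 95% interval of -1.25 to 0.25 (adjusted p = 0.343), although its groups did not overlap in CPM (0.514 to 0.675 and 0.405 to 0.480). With any 1 sample left out, SEMA3A stayed between 0.70 and 1.08 and SEMA3D between 0.79 and 0.92 on the log2 scale, each with an adjusted p of at most 0.0436.

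The scaling moved all 7 tested genes together. The median log2 fold change of all genes tested was 0.02 with TMM, 0.13 with library size alone and 0.23 with limma on FPKM rescaled to TPM (FPKM divided by the sample's total). Relative to that median, SEMA7A was between -0.83 and -0.72 over the 16 fits. SEMA3C was below the median in 16 of 16 fits, by -0.18 to -0.08, while its own sign was positive in 4 of them, with adjusted p of 0.0696 or more there. SEMA4B and SEMA3B were above the median in every one of the 16, by 0.25 to 0.34 and by 0.13 to 0.25. SEMA5A was above it by 0.43 to 0.91 and SEMA4C by 0.01 to 0.12, while SEMA3F lay between -0.11 and 0.03 from it.

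**Figure D3:**
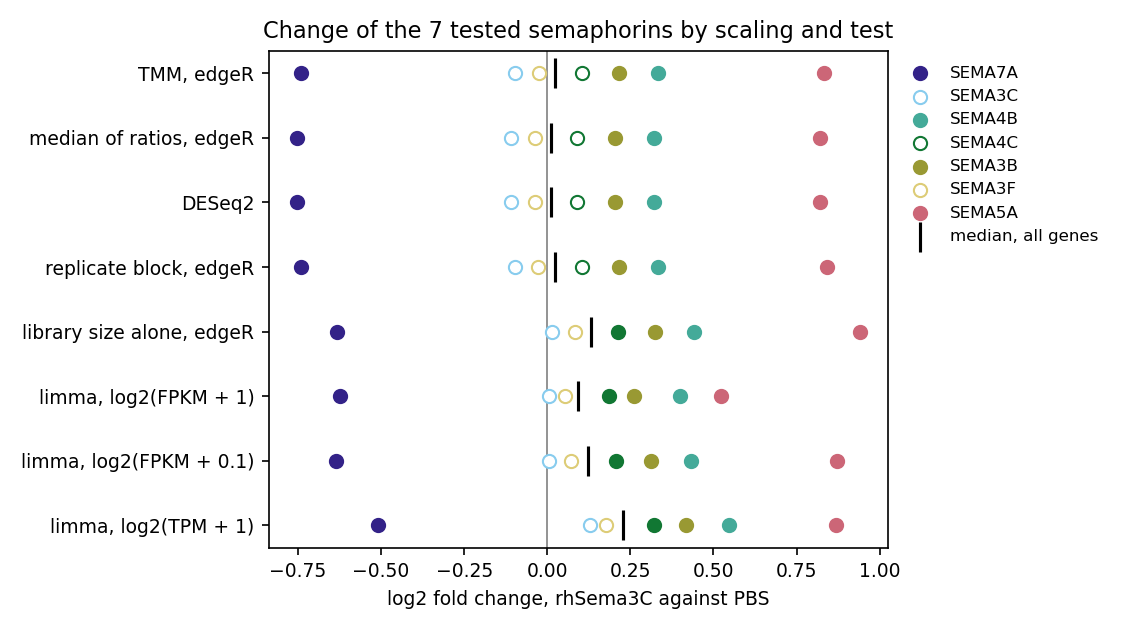
The log2 fold change of rhSema3C against PBS (horizontal axis) of the 7 tested semaphorins under 8 combinations of scaling and test; filled points have an adjusted p below 0.05, open points do not, and black ticks mark the median of all genes. From SEMA5A to SEMA7A the order of the genes is the same in each of the 8 rows, while the median moves from 0.02 with TMM to 0.23 with TPM.

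The summed FPKM of the 10 genes was 87.0, 90.0 and 89.2 in the PBS samples and 77.9, 75.3 and 77.1 in the rhSema3C samples, with no overlap (two-sided exact permutation p = 0.1, the smallest that 3 against 3 samples allow). The difference of means was -13.5% of the PBS mean in FPKM, -5.68% with FPKM rescaled to TPM and -11.3% in CPM. Without SEMA7A, the other 9 genes summed to 35.9 ± 0.721 FPKM with PBS and 42.8 ± 0.164 FPKM with rhSema3C (SD, n = 3). In CPM the means of that sum were 248 and 281. The sum was not planned and leaves out the only tested gene of the 10 called lower, so it is given without a test. Shares of the sum do not depend on scaling between samples. SEMA7A made up 59.5% ± 0.573 of the sum with PBS and 44.2% ± 0.785 with rhSema3C. SEMA4B went from 10.3% ± 0.114 to 16.1% ± 0.278 of the sum. The share of SEMA3C was 13.8%, 12.1% and 13.0% in the PBS samples and 14.0%, 16.2% and 15.0% in the rhSema3C samples. That is 2.09 percentage points more, with every rhSema3C sample above every PBS sample (exact permutation p = 0.1, and 0.111 adjusted over the 10 shares). As a share of summed counts, SEMA3C went from 16.2% ± 1.02 to 17.1% ± 1.18 and the groups overlapped (exact permutation p = 0.5). Within class 3 alone, SEMA3C made up 63.1% ± 1.91 of the FPKM with PBS and 58.0% ± 1.84 with rhSema3C (exact permutation p = 0.1). In the authors' FPKM, SEMA3C itself had a mean of 11.5 in both groups. On that scale, without overlap of the groups, SEMA7A was lower and SEMA3A, SEMA3B, SEMA3D, SEMA4B, SEMA4C and SEMA5A were higher with rhSema3C. SEMA3E and SEMA3F overlapped. In TMM-scaled CPM the mean of SEMA3C was 74.7 with PBS and 69.9 with rhSema3C. The part of each gene in the differences of these shares was not tested.

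**Figure D4:**
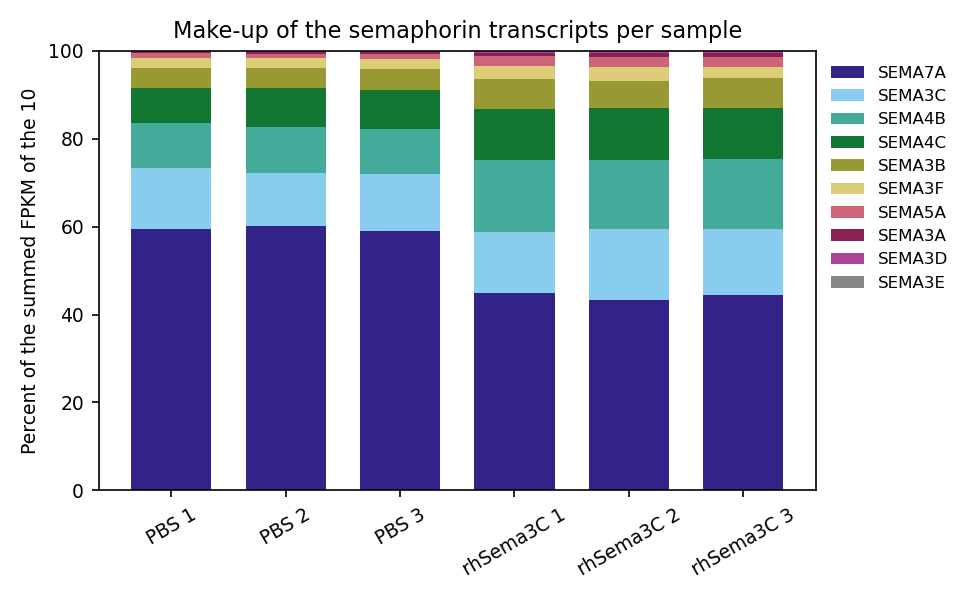
Percent of the summed FPKM of the 10 semaphorins (vertical axis) taken by each gene, as stacked bars for the 3 PBS and 3 rhSema3C samples. The bottom segment, SEMA7A, is 58.9% to 60.1% with PBS and 43.3% to 44.9% with rhSema3C.

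Promoter windows were taken from RefSeq (GRCh38.p14), covering 250 bases before and 50 after a transcript start, and 9 of the 10 genes had at least 1 window, 20 in all. SEMA3A was not analysed here in this respect. The 250 bases before the start are shown for SEMA3C at both of its starts, as the gene of the added ligand, and for SEMA7A and SEMA5A, which had the lowest and the highest fold change of the 7 tested genes. They are written 5′ to 3′ along the minus strand on which all 3 genes lie, at chr7:80922390-80922639 and chr7:80919052-80919301 for SEMA3C, chr15:74433959-74434208 for SEMA7A and chr5:9546076-9546325 for SEMA5A, and capitals mark, in the 1 sequence that has them, the letters TGATGNAA of the ATF4 motif.
SEMA3C, first start: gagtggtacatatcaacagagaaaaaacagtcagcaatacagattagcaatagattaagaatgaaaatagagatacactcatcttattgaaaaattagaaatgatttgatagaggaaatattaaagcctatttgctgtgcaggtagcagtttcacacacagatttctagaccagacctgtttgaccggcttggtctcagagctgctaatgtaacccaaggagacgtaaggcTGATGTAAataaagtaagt
SEMA3C, second start: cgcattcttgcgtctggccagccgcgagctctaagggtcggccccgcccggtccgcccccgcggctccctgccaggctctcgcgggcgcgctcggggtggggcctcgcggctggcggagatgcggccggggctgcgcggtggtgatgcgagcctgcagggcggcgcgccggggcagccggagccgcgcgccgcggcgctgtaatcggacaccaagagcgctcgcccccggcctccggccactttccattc
SEMA7A: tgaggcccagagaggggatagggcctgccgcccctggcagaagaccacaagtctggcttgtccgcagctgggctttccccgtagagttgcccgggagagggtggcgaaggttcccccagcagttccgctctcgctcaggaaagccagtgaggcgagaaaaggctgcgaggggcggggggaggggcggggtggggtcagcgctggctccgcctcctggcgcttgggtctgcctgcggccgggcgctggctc
SEMA5A: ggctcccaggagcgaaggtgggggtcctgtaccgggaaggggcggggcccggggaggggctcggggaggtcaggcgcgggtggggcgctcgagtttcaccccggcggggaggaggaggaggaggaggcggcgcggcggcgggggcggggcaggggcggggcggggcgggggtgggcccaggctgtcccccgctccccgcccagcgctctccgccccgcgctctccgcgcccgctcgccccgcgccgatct
Over the full 300-base windows, G and C made up 36.0% at the first SEMA3C start, 75.7% at the second, 70.0% for SEMA7A and 81.0% for SEMA5A. The median was 69.4% in the 20 windows of these genes and 58.7% in all 35116 windows.

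Letters of 4 motifs were searched on both strands of the 300-base windows. The AP-1 motif TGANTCA was in 0 of the 20 windows and in 7.71% of all windows. The AP1 binding sites that the paper identified in the SEMA3C promoter lie farther upstream than these windows reach. That stretch was not searched here. The ATF4 motif TGATGNAA was in 1 window, that of the first SEMA3C start, where it begins 19 bases before the start, and in 3.62% of all windows. The hypoxia element ACGTG was in 6 windows of 3 genes (4 of SEMA3B, 1 of SEMA3E, and 1 of SEMA7A at a second start, chr15:74433655-74433954, that is not the one printed) and in 21.4% of all windows, and the TATA box TATAAA in 1 window of SEMA3E and in 11.5% of all windows. In SEMA3E, 2 of the 3 ACGTG matches overlap, being read from opposite strands, and 2 of the SEMA3B windows share 1 match. A match is a run of letters and does not show that a factor binds there.

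Of the other 10 semaphorins, 4 were tested. SEMA6B, a membrane-spanning ligand of plexin A proteins, had a CPM of 21.3, 21.6 and 21.5 with PBS and 12.3, 11.9 and 11.9 with rhSema3C, with no overlap. Its log2 fold change was -0.84 ± 0.08 (SE, adjusted p = 4.06e-06). SEMA4F and SEMA4D, the latter a ligand of plexin B1, were lower at log2 fold changes of -0.29 and -0.25 (adjusted p = 0.00517 and 0.0124). Both calls depended on the scaling, with adjusted p of 0.0505 and 0.111 under library size alone, and that of SEMA4D was also lost without PBS replicate 2 (0.0530). SEMA6C was at a log2 fold change of 0.09 (adjusted p = 0.618). SEMA6D was under the filter, with counts of 45, 69 and 36 with PBS and 134, 193 and 163 with rhSema3C, and a log2 fold change of 1.43 ± 0.31 (SE, adjusted p = 0.00714) in the fit of all genes. SEMA3G, SEMA4A, SEMA4G, SEMA5B and SEMA6A were under the filter and did not pass in that fit either.

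The genes around the ligands in the pathway were described by lists. All 5 tested processing enzymes differed, 2 higher and 3 lower, beside 62.3% of all genes tested. FURIN, the protease that cuts class 3 semaphorins, was at 41.7 ± 3.39 FPKM with PBS and 23.0 ± 1.49 FPKM with rhSema3C (SD, n = 3), a log2 fold change of -0.96 ± 0.07 (SE, adjusted p = 3.82e-07). ADAMTS1, a secreted metalloproteinase, fell by 1.03 on the log2 scale (adjusted p = 1.40e-08). ADAM17 and ADAM10, membrane proteases that shed surface proteins, rose by 1.09 and 0.17 (adjusted p = 5.32e-07 and 0.0121), and the call of ADAM10 was lost with all genes tested (0.0543). Of 16 tested receptors, 3 were higher and 5 lower, so that 8 of 16 were called, beside the same 62.3% of all genes. The largest rises were in ITGA1, the alpha-1 integrin chain, at a log2 fold change of 0.85 (adjusted p = 4.21e-07), and NRP1, neuropilin 1, at 0.52 (adjusted p = 1.15e-06), and the largest falls in PLXNA2 at -0.58 and PLXNA1 at -0.37 (adjusted p = 0.00156 and 0.00111), both calls being lost with limma on TPM. The receptor counts were 6 higher and 4 lower under library size alone and 8 higher and 1 lower with limma on TPM. The counts of all 14178 genes tested shifted in the same direction. They were 5654 higher and 3415 lower under library size alone and 6934 higher and 2428 lower with limma on TPM.

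Of 25 tested signalling genes downstream of plexins, 5 were higher and 14 lower (76.0% called, beside 62.3% of all genes tested), with a median log2 fold change of -0.15 beside 0.02. CFL1, the actin-severing protein cofilin, went from 417 to 234 FPKM (log2 fold change -0.94, adjusted p = 7.41e-09), and RHOD, a small GTPase, fell by 0.77 (adjusted p = 1.94e-05). FYN, a kinase activated by class 3 signals, and MICAL1, an oxidase of actin, rose by 0.47 and 0.46 (adjusted p = 2.81e-06 and 2.38e-05). This split depended on the scaling, with 7 higher and 10 lower under library size alone and 10 higher and 6 lower with limma on TPM. Of 11 tested guidance ligands of other families, 1 was higher (NTN4, a netrin, log2 fold change 0.95, adjusted p = 1.81e-05) and 4 were lower, led by RGMB, a repulsive guidance molecule, at -0.69 and SLIT2, a ligand of Robo receptors, at -0.67 (adjusted p = 7.92e-08 and 5.11e-07). In all 45.5% of these ligands were called, and with limma on TPM they gave 5 higher and 2 lower. Of the 126 tested genes that the table annotates to the KEGG axon guidance pathway, 38 were higher and 48 lower (68.3% called). These counts became 53 and 32 under library size alone and 65 and 23 with limma on TPM. Over all genes tested, 4490 were higher and 4339 lower in the reported fit. That became 5654 and 3415 under library size alone and 6934 and 2428 with limma on TPM. Whether the signalling, ligand or KEGG counts moved more than those of all genes was not tested.

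By position, 4 of the 10 genes form a group on chromosome 7 on the minus strand, in the order SEMA3C, SEMA3E, SEMA3A and SEMA3D, with starts over 4264 kb. In the table, on GRCh38, SEMA3C lies at chr7:80742538-80922359 and SEMA3D at chr7:84995553-85186855. The middle pair is SEMA3E at chr7:83363238-83649139 and SEMA3A at chr7:83955777-84492549. Between the outermost starts only 2 other genes were tested, CACNA2D1, a calcium channel subunit (log2 fold change 0.21, adjusted p = 0.218), and PCLO, a synaptic scaffold (-0.54, adjusted p = 0.0136). Thus SEMA3A and SEMA3D rose in a region where SEMA3C and SEMA3E did not pass, and the difference between these genes was not tested. SEMA3F (chr3:50155045-50189075) and SEMA3B (chr3:50267558-50277546) lie on the plus strand with starts 113 kb apart. Of the tested genes with a start within 500 kb, 3 of 24 were higher and 14 lower around SEMA3B, and 5 of 28 were higher and 18 lower around SEMA3F, beside 31.7% higher and 30.6% lower over all genes tested. The windows of SEMA3B and SEMA3F overlap. SEMA7A (chr15:74409289-74433958, minus strand) had 14 such neighbors, 4 higher and 7 lower, and SEMA4B (chr15:90160604-90229676, plus strand) had 15, of which 1 was higher and 6 lower. SEMA4C (chr2:96859718-96870757, minus strand) had 10, with 3 higher and 4 lower. SEMA5A (chr5:9035033-9546075, minus strand) had 2, of which SNHG18, a long noncoding RNA that starts 0.1 kb away on the other strand, was higher by 0.28 (adjusted p = 0.0268).

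The 3 genes whose centred log2 CPM over the 6 samples was closest to that of SEMA3C were SPCS3, a subunit of the signal peptidase, DDX3X, an RNA helicase, and ATP6V1C1, a subunit of the vacuolar proton pump. Their root-mean-square differences from SEMA3C were 0.018, 0.020 and 0.022 on the log2 scale. Their log2 fold changes were -0.12 for each, with adjusted p of 0.0629, 0.0345 and 0.0897.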

How the data were processed

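Messenger RNA of 6 LX-2 samples was sequenced by the authors, whose methods name Cufflinks and cuffmerge, and who called genes at p below 0.05 and a fold change above 2. Aligner, strand use and genome build are not given in the sources used here. The coordinates of all 10 genes lie within 200 bases of GENCODE 29 on GRCh38. The authors deposited a count (whole number, not normalised) and an FPKM value per gene and sample, and no pooled values. Counts without molecular identifiers are not counted molecules.

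Samples were grouped by their labels. Genes whose mean FPKM reached 0.5 were tested with edgeR 4.0.16 (R 4.3.3), TMM factors and Benjamini-Hochberg adjustment, with 95% intervals from its quasi-likelihood t distribution. Alternatives were DESeq2 1.42.0, limma 3.58.1 on log2 values with a pseudocount of 1 or 0.1, other scalings and filters, each sample left out in turn, and the replicate number as a block. The combinations of all genes with other settings were added after seeing the data. Sums and shares used two-sided exact permutation tests, while the sum without SEMA7A is given as values only. The tests were tried on simulated data. The common biological coefficient of variation was 0.117.

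The genes and lists were chosen with earlier results of these data known. Named were all semaphorins, the 2 largest called rises and falls of each list of pathway genes (or 1 where only 1 was called), and the 3 profiles closest to SEMA3C, while the KEGG genes and neighbors were given by counts. CACNA2D1, PCLO and SNHG18 and single markers were named after their values were seen. Protein sequences were not analysed here.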

Additional observations from a re-analysis of the deposited data

How the results depend on the processing

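Over the alternatives run, SEMA7A stayed lower and SEMA5A and SEMA4B higher with an adjusted p below 0.05. The counts of called semaphorins were 2 to 3 higher and 1 lower with any sample left out. Under library size alone and the limma fits 4 were higher, namely SEMA5A, SEMA4B, SEMA3B and SEMA4C. With all genes tested 4 were also higher, but the set differed, being SEMA5A, SEMA4B, SEMA3A and SEMA3D. In that fit SEMA3B and SEMA4C did not pass (adjusted p = 0.0531 and 0.342). SEMA3A and SEMA3D were under the filter of the reported fit, so the equal counts do not cover the same genes. Over all genes, limma on TPM gave 6934 higher and 2428 lower and library size alone 5654 and 3415, where the reported fit gave 4490 and 4339. The sign of SEMA3C turned under library size alone (0.013), limma on log2(FPKM + 1) (0.0063) and log2(FPKM + 0.1) (0.0067), and limma on TPM (0.13). That of SEMA3F turned under the same fits (0.084, 0.052, 0.072 and 0.18), and ranged from -0.066 to 0.049 with a sample left out, being 0.0048 without PBS replicate 2 and 0.049 without rhSema3C replicate 3. SEMA6C ranged from -0.019 to 0.20 with a sample left out, turning sign without PBS replicate 1. The alternatives of SEMA4B reached 0.55 and those of SEMA3B 0.42, both with limma on TPM. The cause of these differences was not tested beyond the shift of the median that each scaling brings. With a replicate block, 8341 genes were called in place of 8829, and 3 semaphorins were higher and 1 lower. Same-numbered samples had correlations of -0.0041, 0.058 and -0.027 in their deviations from the group means. Such values cannot show whether the samples were set up in pairs.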
